A study of Mus musculus with 14 samples.

Results

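The comparison described here is the response of primary hepatocyte preparations to a steatohepatitis diet, taken over 6 of the 14 arrays of the study and fitted on those 6 alone. The 3 control arrays are labelled MousePH_CSAA_1 to 3 and the 3 treated arrays MousePH_CDAA_1 to 3, and each is called here by its diet and number (CSAA 1, CDAA 1). All mice were adult C57Bl6 males of genotype WT. The control group ate a choline-supplemented, amino acid-defined diet (CSAA). The treated group ate its choline-deficient counterpart (CDAA) with added cholesterol, glucose and fructose, called CDAA-HSHC in the study's title, so that lack of choline and the added sterol and sugar changed together. Both groups ate their diet for 2 weeks. Hepatocytes were released by perfusing the liver with collagenase in a protocol of 2 steps, and RNA was extracted with the RNeasy Plus kit. The series describes 3 separate preparations of hepatocytes and does not say how many mice went into one. The purity of the cells was not given in the sources used here. The remaining 8 arrays hold total liver (the caudal lobe after saline perfusion) on the same diets, 4 per diet, and serve only to show where the hepatocyte preparations differ.

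Hepatocytes make most plasma proteins, synthesise cholesterol and bile acids, package fat into lipoproteins and run the urea cycle. Choline is needed for phosphatidylcholine, without which lipoproteins leave the cell poorly and fat stays in it, and dietary cholesterol shuts down the cell's own sterol synthesis through the SREBP2 transcription factor. A collagenase preparation is enriched for hepatocytes but can carry Kupffer cells (the resident macrophages of the liver), endothelial cells, stellate cells and recruited leukocytes, so the markers of those cells are given beside the results.

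Values are the deposited log2 signals of mouse Clariom S arrays, an Affymetrix design with 1 probe set for most genes. Of 28846 probe sets, 6640 were controls and 22206 were tested. A difference is the CDAA mean minus the CSAA mean on the log2 scale, given ± its standard error, and the adjusted p is that of limma's moderated test after Benjamini-Hochberg correction over all tested probe sets, with 0.05 as the threshold for a call. Background was taken as the 95th percentile of 5222 control probe sets that their names mark as negative; the files say no more of what they target, and every count against background and every lower bound below rests on that reading. It stood at 7.64, 8.01 and 7.57 on CSAA 1 to 3 and 6.84, 7.04 and 7.61 on CDAA 1 to 3. A gene under that line on all 3 arrays of a diet is called not above background there, and its change is given as a lower bound ("at least"), which sets the brighter group's mean against the background line of the dimmer group. List medians with bounds leave out members not above background on either diet. They take a member under background on 1 diet at its bound, or at 0 where no bound could be given. Correlations between arrays ran from 0.978 to 0.983 within CSAA and from 0.952 to 0.982 within CDAA. CDAA 1 stood nearest to the controls, with correlations of 0.936 to 0.943 to the CSAA arrays against 0.904 to 0.925 for the other two CDAA arrays, and departed most from its group mean (root mean square 0.594, against 0.363 to 0.519 on the other arrays).

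The hepatocyte identity of the 6 arrays was checked first. Alb (albumin) read 19.86, 19.79 and 19.80 on the CSAA arrays and 19.91, 19.86 and 19.66 on the CDAA arrays, at or near the highest signal on each array and without separation of the diets (-0.0050 ± 0.23, adjusted p = 0.993). A probe set at the top of the scale can hide a difference. Of 22 measured genes of general hepatocyte function, all were above background on both diets. Of the markers of other cells, 13 of 17 for Kupffer cells, 14 of 15 for recruited macrophages, 14 of 20 for sinusoidal endothelium and 13 of 13 for stellate cells were not above background on the CSAA arrays. On the CDAA arrays only 1, 2, 4 and 4 of them remained so. On the control arrays most markers of other liver cells thus stayed under background, and on the CDAA arrays most of them rose above it. In a bulk sample fewer cells of a type and less RNA per cell cannot be told apart.

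Across the array, 1883 of 22206 probe sets passed the threshold (8.48%), 1450 higher on CDAA (6.53%) and 433 lower (1.95%). A further count, of probe sets whose 3 CDAA values all lay above or all lay below the 3 CSAA values, gave 2751 (12.4%) and 3153 (14.2%). The higher calls had a median log2 difference of 2.72, with 386 of them at 4 or more. The lower calls had a median of -1.82, with 24 at -4 or less. These sizes include readings under background, where only a lower bound can be given. Of the 1450 higher probe sets, 1140 were not above background on CSAA (78.6%, against 71.6% of all tested). Of these 1140, 300 were not above background on CDAA either, and 362 had a lower bound of 1 or more (log2). Of the 433 lower probe sets, 121 were not above background on CDAA, and 81 of these were under it on CSAA as well. CDAA 1 was the lowest of the 3 CDAA arrays in 56.7% of the higher calls and the highest in 56.4% of the lower calls, against 34.8% and 37.8% of all probe sets, so its values lay toward the controls in both directions. Without CDAA 1 the number of calls was 3221, and it was 1092, 1118, 1255 and 1090 without CSAA 1, CSAA 2, CSAA 3 and CDAA 2. The balance of directions depended on scaling: 77% of calls were higher as deposited, 63.2% after a second quantile normalization, 64.6% with each array centred on its median, 90.4% with centring on the negative controls and 99.6% with centring on 19 hepatocyte genes. The last raised the median of all probe sets from -0.13 to 1.75, so the lists below are also given on that scale wherever their sign turned.

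**Figure D1:**
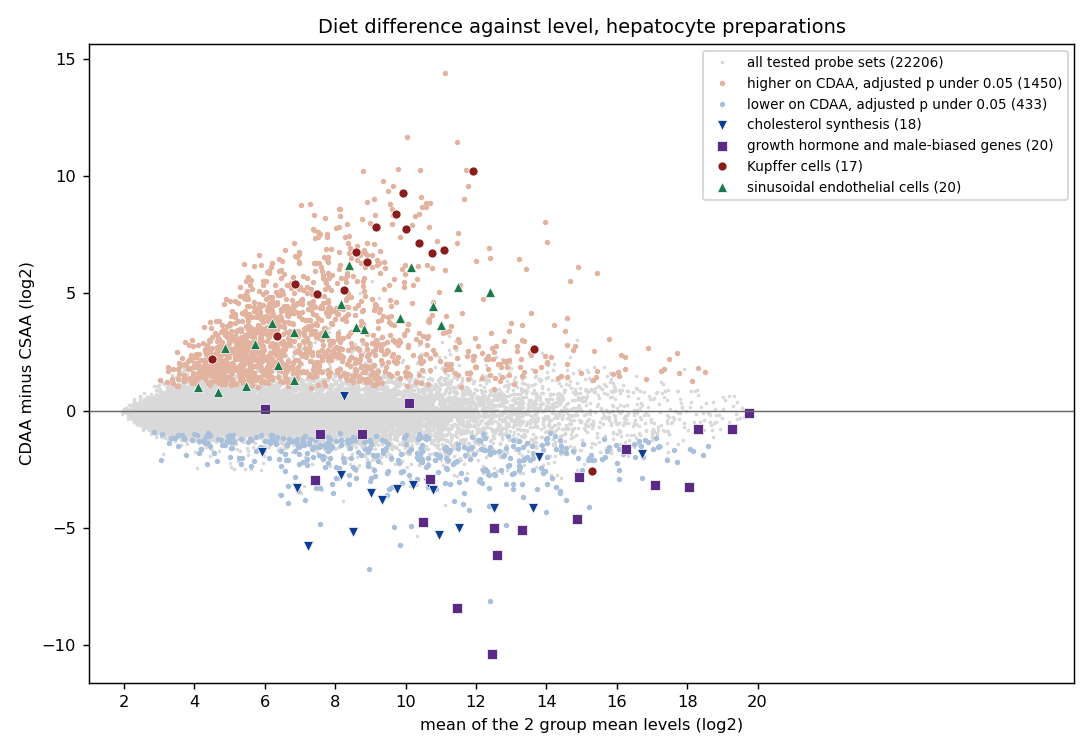
Each point is 1 of 22206 probe sets, with the mean of the 2 diet group levels (log2) on the x axis and the CDAA minus CSAA difference (log2) on the y axis, and members of 4 gene lists are marked in colour. Markers of Kupffer cells and sinusoidal endothelium lie mostly above 0, and cholesterol synthesis genes lie between -5.77 and 0.60, with 17 of 18 below 0; centring on hepatocyte genes leaves 13 of the 18 called lower and 1 called higher.

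The enzymes of cholesterol synthesis fell almost without exception. Of 18 measured members, 17 passed the test as lower and none as higher, with a median log2 difference of -3.36 against -0.13 over all probe sets. With arrays centred on hepatocyte genes the median was -1.48, with 13 members lower and 1 higher. Hmgcs1, which condenses acetyl units into the precursor of mevalonate, read 16.22, 15.75 and 15.11 on CSAA and 12.96, 11.46 and 10.22 on CDAA (-4.15 ± 0.66, adjusted p = 0.00731). Idi1, which isomerises isopentenyl diphosphate, read 13.73, 13.003 and 14.10 and 7.204, 8.78 and 8.94 (-5.30 ± 0.51, adjusted p = 0.000857). Neither gene's groups overlapped; CDAA 1 was the CDAA array nearest to the controls for Hmgcs1 and the farthest from them for Idi1. Squalene epoxidase, Sqle, an oxygen-requiring step of the pathway, read 10.33, 10.40 and 9.59 on CSAA and was not above background on CDAA (4.58, 4.33 and 4.11), at least 7.68-fold lower (adjusted p = 8.87e-05). Farnesyl diphosphate synthase, Fdps, likewise dropped to background and was at least 15.2-fold lower (adjusted p = 0.000313). The lanosterol demethylase Cyp51 read 13.91, 13.80 and 14.34 against 8.01, 9.62 and 9.42 (-5.00 ± 0.44, adjusted p = 0.000623), and the sterol dehydrogenase Nsdhl 14.77, 14.21 and 14.72 against 10.86, 10.46 and 9.99 (-4.13 ± 0.31, adjusted p = 0.000363). Both were lower on all CDAA arrays. The other lower members were Dhcr7, Ebp, Fdft1, Hsd17b7, Lss, Msmo1, Mvd, Mvk, Pmvk, Sc5d and Stard4, of which Mvk was not above background on either diet. The exception was Ggps1, which makes geranylgeranyl diphosphate on a side branch, at 0.60 ± 0.39 and not called (adjusted p = 0.433). Leaving out single arrays ended the call of Mvk without CSAA 1 or CDAA 2 (highest adjusted p = 0.0614).

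Promoter sequence was compared for these genes because they moved together. The 250 bases before the transcription start (RefSeq, build GRCm38.p6, mouse) were available for 14 of the 18, and were searched on both strands for 5 motifs. One was CCAAT, the NF-Y box that often accompanies SREBP sites, which reads as ATTGG from the opposite strand. Another was one spelling of the sterol response element, TCACNCCAC, which reads as GTGGNGTGA from the opposite strand. The rest were a core of the antioxidant response element, a STAT motif that reads the same on both strands (TTCNNNGAA) and the letters of PU.1 (GAGGAAGT, or ACTTCCTC). The CCAAT letters occurred in 14 of 14, against 39.2% of 15691 tested genes with a promoter in the table. The sterol response element letters occurred in 1 of 14, Hmgcs1 (7.14%), against 1.22% of all. Those of the antioxidant element also occurred in 1 of 14 (2.52% of all), those of STAT in 2 (14.3%, against 7.76% of all) and those of PU.1 in none (2.63% of all). Shown 5′ to 3′ in the direction of the gene, with the matched letters in capitals, are the promoters of 4 members whose levels are given above: Hmgcs1 (chr13:119690101-119690350, plus strand), Idi1 (chr13:8885356-8885605, plus strand), Cyp51 (chr5:4104698-4104947, minus strand) and Nsdhl (chrX:72918271-72918520, plus strand).
Hmgcs1: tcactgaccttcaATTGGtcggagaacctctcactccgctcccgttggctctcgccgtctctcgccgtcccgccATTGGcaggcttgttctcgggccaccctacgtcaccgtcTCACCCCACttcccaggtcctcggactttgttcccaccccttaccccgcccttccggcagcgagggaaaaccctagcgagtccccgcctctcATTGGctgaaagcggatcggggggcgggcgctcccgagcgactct
Idi1: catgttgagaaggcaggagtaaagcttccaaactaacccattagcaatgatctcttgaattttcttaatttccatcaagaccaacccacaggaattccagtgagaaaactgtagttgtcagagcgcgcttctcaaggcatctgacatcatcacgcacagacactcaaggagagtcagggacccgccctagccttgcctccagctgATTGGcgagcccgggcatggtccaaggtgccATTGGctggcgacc
Cyp51: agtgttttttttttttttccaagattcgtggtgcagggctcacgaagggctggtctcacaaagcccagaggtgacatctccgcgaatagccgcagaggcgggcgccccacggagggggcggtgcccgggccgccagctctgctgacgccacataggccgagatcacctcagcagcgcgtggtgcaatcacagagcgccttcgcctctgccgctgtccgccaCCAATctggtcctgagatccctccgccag
Nsdhl: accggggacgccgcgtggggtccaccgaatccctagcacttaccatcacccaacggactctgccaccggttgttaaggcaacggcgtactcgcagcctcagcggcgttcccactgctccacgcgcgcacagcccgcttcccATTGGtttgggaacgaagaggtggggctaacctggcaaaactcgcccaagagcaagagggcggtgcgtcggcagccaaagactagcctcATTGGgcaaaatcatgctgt
In Hmgcs1 the sterol response element letters begin 137 bases before the start, between CCAAT matches at 237, 176 and 45 bases. In Idi1 the matches begin at 45 and 14 bases, in Cyp51 at 29 bases on the strand of the gene, and in Nsdhl at 109 and 20 bases. These are matches of letters and not measured sites.

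Around the synthesis pathway, genes of sterol sensing and transport moved in both directions. Insig1, which holds SREBP in the endoplasmic reticulum and is itself an SREBP target, read 15.27, 15.64 and 14.60 on CSAA and 11.20, 12.07 and 11.23 on CDAA (-3.67 ± 0.37, adjusted p = 0.00108) and was the only lower call of 9 sterol sensing genes. Scap, the SREBP escort, stood at -3.18 ± 0.92, adjusted p = 0.0846, and its call was not made. Npc2, which moves cholesterol out of lysosomes, rose (2.93 ± 0.53, adjusted p = 0.0135), and Mylip, a ligase that degrades lipoprotein receptors, rose from background to at least 5.22-fold (adjusted p = 0.00264). Of 9 genes of cholesterol export and esterification 3 rose. The phospholipid transfer protein Pltp read 9.85, 9.85 and 6.87 on CSAA and 13.44, 15.19 and 14.002 on CDAA (5.35 ± 0.84, adjusted p = 0.007), the sterol exporter Abcg1 was at least 1.27-fold higher from background (adjusted p = 0.004), and the cholesterol ester hydrolase Nceh1 differed by 1.604 ± 0.36, adjusted p = 0.0337. Abca1, which loads cholesterol on apolipoprotein A1, was at -1.22 ± 0.57, adjusted p = 0.277. Macrophages also express Abcg1, Pltp, Npc2 and Nceh1; the macrophage markers given below rose on the same arrays, and their part in these calls was not tested. Without CDAA 1, 5 sterol sensing genes were lower and 2 export genes were lower as well. The median of the sensing list was -1.39, and 0.49 when centred on hepatocyte genes. Only 1 of 9 sensing genes was called higher without CSAA 1, CSAA 2 or CDAA 2. Calls that did not hold on removal of 1 array were those of Npc2 without CSAA 1, CSAA 2 or CDAA 2 (highest adjusted p = 0.0711) and Nceh1 without CSAA 1, CSAA 2, CSAA 3 or CDAA 2 (highest adjusted p = 0.124).

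Bile acid genes gave calls in both directions. Of 23 measured, 6 fell and 2 rose (median -1.003, and 0.87 when centred on hepatocyte genes; 11 fell without CDAA 1). Cyp7b1, the oxysterol hydroxylase of the alternative pathway, read 15.93, 15.27 and 16.33 on CSAA and 10.86, 10.56 and 10.87 on CDAA (-5.08 ± 0.32, adjusted p = 0.00018). Cyp8b1, which makes cholic acid, read 13.53, 13.21 and 13.23 and 10.70, 8.70 and 8.96 (-3.87 ± 0.51, adjusted p = 0.00326). Both separated the diets on all arrays. Cyp7a1, the rate-limiting enzyme of the classical pathway, lay the other way at 11.78, 13.82 and 14.96 and 16.29, 16.27 and 14.88, a difference of 2.30 ± 0.79 that missed the threshold (adjusted p = 0.141). Of the uptake carriers at the sinusoidal membrane, Slco1a1 (-4.62 ± 0.60, adjusted p = 0.00315) and the sodium-dependent bile acid carrier Slc10a1 (-2.54 ± 0.34, adjusted p = 0.0035) fell and Slco1a4, another organic anion carrier, rose (2.41 ± 0.39, adjusted p = 0.00841). Slc27a5, which activates bile acids for conjugation, was at -2.09 ± 0.29, adjusted p = 0.00405, and the FGF co-receptor Klb at -1.59 ± 0.38, adjusted p = 0.0441. Slc51b, a subunit of the basolateral bile acid exporter, rose too; it read 4.60, 4.31 and 4.74 on CSAA, under background, and 6.92, 7.95 and 8.21 on CDAA, too near the background line for a bound (adjusted p = 0.00207). Among the genes named in this group, the call ended for Klb without CSAA 1, CSAA 2, CSAA 3, CDAA 2 or CDAA 3 (highest adjusted p = 0.176).

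Genes that depend on the male pattern of growth hormone included the lowest differences. Of 20 measured, 11 were lower and none higher, with a median of -2.95 (and -1.07 with 10 lower and 3 higher when centred on hepatocyte genes). Hsd3b5, a steroid dehydrogenase of male liver, read 17.13, 17.65 and 18.12 on CSAA and 6.87, 6.99 and 7.95 on CDAA (-10.36 ± 0.39, adjusted p = 2.78e-05), the lowest difference among all genes named by the rule. Elovl3, an elongase of very long fatty acids, read 16.93, 16.95 and 13.11 and 9.90, 6.34 and 5.45 (-8.43 ± 1.37, adjusted p = 0.00813). The fatty acid hydroxylase Cyp4a12a read 16.09, 15.58 and 15.29 and 10.04, 9.07 and 9.42 (-6.14 ± 0.34, adjusted p = 0.000106). No CDAA array reached the lowest CSAA array in any of the 3. Cyp4a12b, Cyp2u1, Serpina1e, Cyp2d9, Igfals (the carrier subunit of circulating IGF1) and the growth hormone receptor Ghr also fell, with differences of -4.99, -4.76, -3.27, -3.19, -2.93 and -1.62; Cyp7b1 and Slco1a1, given above, are on the list as well. Igf1 itself (-0.78 ± 0.24, adjusted p = 0.0985) and Stat5b (-0.98 ± 0.41, adjusted p = 0.226), which transmits the hormone's signal, were not called, and neither was its target Socs2. Copies as similar as Cyp4a12a and Cyp4a12b may share hybridisation and cannot be read as independent. Removal of 1 array ended the call for Cyp2d9 without CSAA 1, CSAA 2, CSAA 3 or CDAA 2 (highest adjusted p = 0.133).

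Among genes more abundant in female liver, 4 of 19 rose and none fell, while 10 were not above background on either diet (median 0.50). The testosterone hydroxylase Cyp2a4 read 8.28, 8.10 and 10.10 on CSAA and 14.19, 16.18 and 15.20 on CDAA (6.36 ± 0.66, adjusted p = 0.00119). Its close relative Cyp2a5, a coumarin hydroxylase counted on the drug metabolism list, rose by 6.14 ± 0.86, adjusted p = 0.00427; the pair are nearly identical in sequence and may be read by the same transcripts. Cyp3a44 rose (1.69 ± 0.27, adjusted p = 0.00763), as did the peroxisomal carrier Abcd2 (1.20 ± 0.26, adjusted p = 0.0307). Atp6v0d2, a subunit of the vacuolar proton pump, rose from background to at least 22.1-fold (adjusted p = 0.000844); macrophages and osteoclasts use it too. Cyp17a1, at 8.52, 8.77 and 9.85 and 9.74, 8.79 and 8.07, did not differ beyond its spread (-0.18 ± 0.51, adjusted p = 0.88). With 1 array left out at a time, the call was lost for Abcd2 without CSAA 1, CSAA 2, CSAA 3, CDAA 2 or CDAA 3 (highest adjusted p = 0.13).

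**Figure D2:**
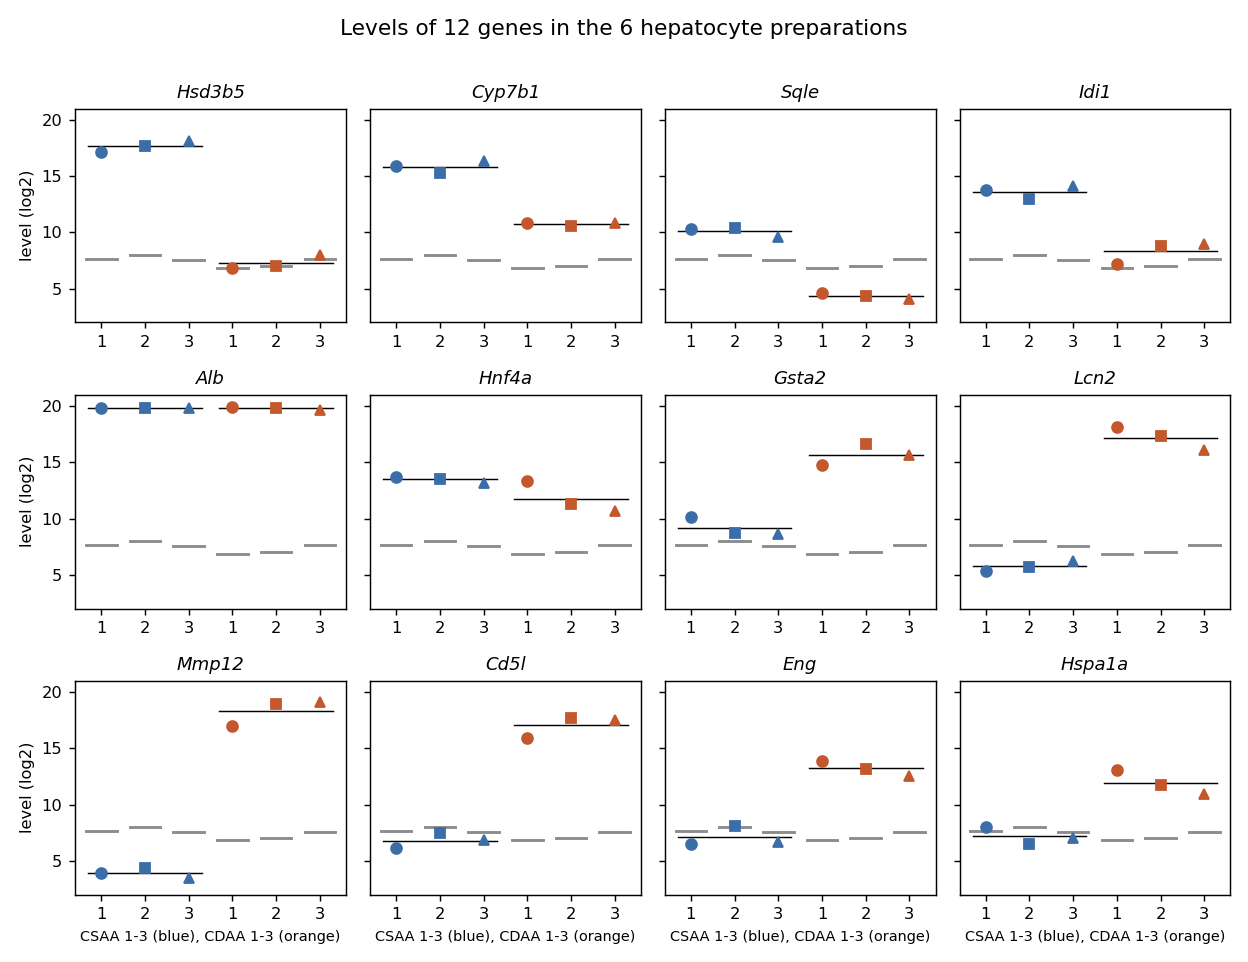
Deposited log2 signal on each of the 6 hepatocyte arrays for 12 genes, in blue for CSAA and orange for CDAA, with a circle, square and triangle for preparations 1, 2 and 3, a black line for the group mean and a grey dash for that array's background. Hsd3b5, Cyp7b1, Sqle and Idi1 are lower on all 3 CDAA arrays, Alb overlaps between diets, Hnf4a is lower on CDAA 2 and CDAA 3 while CDAA 1 at 13.29 lies within the CSAA range, and Gsta2, Lcn2, Mmp12, Cd5l, Eng and Hspa1a are higher on all 3 CDAA arrays.

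Fatty acid synthesis leaned down, with few calls. Of 22 lipogenic genes 5 fell and none rose, at a median of -1.81 that became 0.065 when centred on hepatocyte genes. ATP citrate lyase, Acly, which supplies cytosolic acetyl-CoA, read 14.46, 14.36 and 12.06 on CSAA and 9.79, 9.41 and 9.70 on CDAA (-3.99 ± 0.61, adjusted p = 0.00632). Mlxipl, which encodes the glucose-responsive factor ChREBP, read 12.47, 12.61 and 11.68 and 9.88, 8.58 and 8.55 (-3.25 ± 0.44, adjusted p = 0.00367). Both were lower on every CDAA array. Acss2 (-2.89 ± 0.53, adjusted p = 0.0142), Lpin1 (-2.88 ± 0.36, adjusted p = 0.00249) and the citrate carrier Slc25a1 (-2.03 ± 0.46, adjusted p = 0.0348) were the other calls. Fatty acid synthase, Fasn, read 14.02, 14.50 and 10.85 and 11.43, 8.67 and 7.18, and its difference of -4.03 ± 1.25 missed the threshold (adjusted p = 0.105) with CDAA 1 well above the other two CDAA arrays. The desaturase Scd1 was not called (-0.080 ± 0.71, adjusted p = 0.965). Without CDAA 1, 14 of the 22 were called lower, whereas 3 were without CSAA 1, CSAA 2 or CDAA 2; without CDAA 3, 1 was called higher. Leaving out single arrays ended the call of Acss2 without CSAA 1, CSAA 2 or CDAA 2 (highest adjusted p = 0.0733) and Slc25a1 without CSAA 1, CSAA 2, CSAA 3, CDAA 2 or CDAA 3 (highest adjusted p = 0.143).

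Lipid storage, uptake and oxidation genes were mixed. Of 19 lipid droplet genes 2 rose, where 6.53% of all probe sets rose. They were the droplet fusion protein Cidec, from background to at least 2.36-fold (adjusted p = 0.00188), and the lipase inhibitor Hilpda, to at least 2.46-fold (adjusted p = 0.00991). Plin2, which coats droplets, read 16.28, 15.19 and 15.11 on CSAA and 15.41, 15.44 and 14.46 on CDAA and was not called (-0.42 ± 0.42, adjusted p = 0.626). The list's median was -0.11, and 1.77 when centred on hepatocyte genes. Without CDAA 1, 1 droplet gene was called lower, and without CDAA 2 only 1 was called higher. Of 13 uptake genes 4 rose and 3 fell (median -0.47, and 1.40 when centred on hepatocyte genes, where 8 were higher and none lower). The scavenger receptor Cd36 read 5.58, 6.59 and 6.24 on CSAA, not above background, and 13.91, 15.31 and 15.79 on CDAA, at least 154-fold higher (adjusted p = 0.00012). Lipoprotein lipase, Lpl, read 7.96, 7.55 and 7.11 and 12.17, 14.59 and 12.64 (5.596 ± 0.61, adjusted p = 0.00146), and Fabp4, a fatty acid binding protein of adipocytes, macrophages and endothelium, was at least 12.6-fold higher (adjusted p = 0.00409). The hepatocyte members went down, with liver fatty acid binding protein Fabp1 at -1.55 ± 0.27, adjusted p = 0.0105, Slc27a2 at -1.83 ± 0.37, adjusted p = 0.0204 and Slc27a5 as above, while Slc27a1 rose from below background. Macrophages and endothelial cells express Cd36, Lpl and Fabp4; their markers moved on the same arrays and their part in these calls was not tested. Calls that did not hold on removal of 1 array were those of Hilpda without CDAA 2 (highest adjusted p = 0.0541), Slc27a2 without CSAA 1, CSAA 2, CDAA 2 or CDAA 3 (highest adjusted p = 0.0943) and Slc27a1 without CSAA 1, CSAA 2, CSAA 3, CDAA 1 or CDAA 2 (highest adjusted p = 0.155).

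Of 23 genes of fatty acid oxidation 2 rose, where 6.53% of all probe sets rose. The thioesterase Acot2 rose (3.71 ± 0.69, adjusted p = 0.0154) and Acot1 rose from below background to at least 1.61-fold (adjusted p = 0.00644). Cpt1a, which admits fatty acids to mitochondria (-0.77 ± 0.70, adjusted p = 0.585), the PPARα target Cyp4a14 (0.53 ± 1.48, adjusted p = 0.877) and Ppara itself (-2.09 ± 0.56, adjusted p = 0.0674) were not called. The median of the list was -0.10 and turned to 0.20 with centring on the negative controls and 1.78 with centring on hepatocyte genes. Without CDAA 1, 4 members were called lower. Leaving out CSAA 1, CSAA 2, CSAA 3 or CDAA 2 left 1 called higher. Among the genes named in this group, the call ended for Acot2 without CSAA 1, CSAA 2, CSAA 3 or CDAA 2 (highest adjusted p = 0.0773).

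The choline and one-carbon genes, the pathway the diet starves, gave 3 calls of 25, all lower, and 22 of 25 had a difference below 0 (median -0.91, and 0.96 when centred on hepatocyte genes). Mttp, which loads lipid on apolipoprotein B, read 14.67, 14.67 and 13.94 on CSAA and 13.11, 12.23 and 12.05 on CDAA (-1.96 ± 0.37, adjusted p = 0.0159). Pcyt2, an enzyme of phosphatidylethanolamine synthesis (-1.85 ± 0.40, adjusted p = 0.028), and Ahcy, which clears S-adenosylhomocysteine (-1.47 ± 0.36, adjusted p = 0.0454), were the other calls. The groups did not overlap for these 3 genes. Pemt, which methylates phosphatidylethanolamine to phosphatidylcholine, read 16.91, 17.21 and 17.56 and 16.75, 16.72 and 16.70 (-0.50 ± 0.26, adjusted p = 0.321). Bhmt, which uses betaine, the oxidation product of choline, to remethylate homocysteine (-0.84 ± 0.48, adjusted p = 0.37), and the glycine methyltransferase Gnmt (-1.38 ± 0.46, adjusted p = 0.133) were not called either. Without CDAA 1 the count was 10, without CSAA 3 it was 1, and without CSAA 1, CSAA 2 or CDAA 2 it was 0. Removal of 1 array ended the call for Mttp without CSAA 1, CSAA 2 or CDAA 2 (highest adjusted p = 0.0796), Pcyt2 without CSAA 1, CSAA 2, CSAA 3, CDAA 2 or CDAA 3 (highest adjusted p = 0.121) and Ahcy without CSAA 1, CSAA 2, CSAA 3, CDAA 2 or CDAA 3 (highest adjusted p = 0.14).

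Genes of general hepatocyte function and of complement and coagulation fell in part. Of the 22 general hepatocyte function genes 3 fell and none rose, where 1.95% of all probe sets fell. All 3 CDAA arrays lay under all 3 CSAA arrays in 16 of the 22, against 14.2% of all probe sets. The median was -0.68, and 1.20 when centred on hepatocyte genes, and 7 fell without CDAA 1. That scale was set by members of this list and of the complement and coagulation list. They were those above background and under a level of 16 on every array, so neither list is independent of the scale. The histidine lyase Hal read 15.73, 15.12 and 15.41 on CSAA and 12.08, 12.32 and 11.78 on CDAA (-3.36 ± 0.28, adjusted p = 0.000491), the glyoxylate aminotransferase Agxt 12.59, 12.35 and 13.54 and 10.13, 9.87 and 9.17 (-3.11 ± 0.40, adjusted p = 0.00293), and prothrombin, F2, 17.76, 17.65 and 17.70 and 17.02, 16.39 and 16.23 (-1.16 ± 0.28, adjusted p = 0.0446). All 3 were lower on each CDAA array. Complement and coagulation factors moved more, with 13 of 26 lower, none higher and 25 of 26 differences below 0 (median -1.49, and 0.38 when centred on hepatocyte genes). The membrane attack components C8b (-3.13 ± 0.52, adjusted p = 0.00889) and C8a (-2.92 ± 0.49, adjusted p = 0.00942) and the clotting factors F11 (-2.66 ± 0.37, adjusted p = 0.00427) and F12 (-2.05 ± 0.51, adjusted p = 0.0495) fell, as did C6, C9, C8g, Hc, C2, F7, F10, the anticoagulant Proc and the mannose-binding lectin Mbl1. The number of lower calls was 3 without CSAA 1, CSAA 3 or CDAA 2 and 4 without CSAA 2. With 1 array left out at a time, the call was lost for F2 without CSAA 1, CSAA 2, CSAA 3, CDAA 2 or CDAA 3 (highest adjusted p = 0.172), C8a without CSAA 1 (highest adjusted p = 0.0525), F12 without CSAA 1, CSAA 2, CSAA 3, CDAA 2 or CDAA 3 (highest adjusted p = 0.19), C6 without CSAA 1, CSAA 2, CSAA 3 or CDAA 2 (highest adjusted p = 0.114), C9 without CSAA 1, CSAA 2, CSAA 3 or CDAA 2 (highest adjusted p = 0.0848), C8g without CSAA 1, CSAA 2, CSAA 3, CDAA 1, CDAA 2 or CDAA 3 (highest adjusted p = 0.145), Hc without CSAA 1, CSAA 2, CSAA 3, CDAA 2 or CDAA 3 (highest adjusted p = 0.125), C2 without CSAA 1, CSAA 2, CSAA 3 or CDAA 2 (highest adjusted p = 0.0964), F7 without CSAA 1, CSAA 2, CSAA 3, CDAA 2 or CDAA 3 (highest adjusted p = 0.11), F10 without CSAA 1, CSAA 3 or CDAA 2 (highest adjusted p = 0.0811), Proc without CSAA 1, CSAA 2, CSAA 3, CDAA 2 or CDAA 3 (highest adjusted p = 0.158) and Mbl1 without CSAA 2, CSAA 3 or CDAA 2 (highest adjusted p = 0.0696).

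Acute phase genes rose in part. Of 21 measured, 8 were higher and none lower (median 0.57, and 0.073 with bounds over 20 members). Lipocalin 2, Lcn2, an iron-scavenging protein of stressed hepatocytes and neutrophils, read 5.30, 5.71 and 6.25 on CSAA, not above background, and 18.13, 17.34 and 16.11 on CDAA, at least 700-fold higher (adjusted p = 5.35e-05). Serum amyloid A genes rose, Saa1 from 7.23, 7.88 and 8.81 to 11.05, 10.70 and 10.09 (2.64 ± 0.45, adjusted p = 0.00975) and Saa2 by 3.40 ± 0.39, adjusted p = 0.0018. Orosomucoid Orm2 rose by 3.35 ± 0.24, adjusted p = 0.000274. These groups did not overlap. Saa3, Steap4, Orm3 and the interleukin 1 receptor antagonist Il1rn were the other calls, the last at least 11.9-fold higher from background (adjusted p = 0.000103). Without CDAA 1, 5 members were lower and the median was -0.067. Leaving out single arrays ended the call of Saa1 without CSAA 2 or CDAA 2 (highest adjusted p = 0.0524) and Orm3 without CSAA 1, CSAA 2 or CDAA 2 (highest adjusted p = 0.116).

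Hepatocyte transcription factors gave 1 call among 16, Mlxipl, yet 14 of 16 differences were below 0 (median -1.43, and 0.45 when centred on hepatocyte genes). Hnf4a, a master regulator of hepatocyte genes, read 13.72, 13.54 and 13.18 on CSAA and 13.29, 11.32 and 10.65 on CDAA (-1.72 ± 0.62, adjusted p = 0.164). Cebpa read 13.28, 13.13 and 12.93 and 12.37, 10.59 and 10.001 (-2.12 ± 0.57, adjusted p = 0.064). In both genes CDAA 1 read with the controls or nearest to them and CDAA 2 and CDAA 3 lower. Without CDAA 1, 9 of the 16 were called lower, at a median of -2.17.

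Of 22 genes of the urea cycle and amino acid breakdown 9 fell and none rose (median -1.20, and 0.68 when centred on hepatocyte genes). They included the kynurenine enzymes Kynu (-2.10 ± 0.25, adjusted p = 0.00211), Kmo (-1.53 ± 0.25, adjusted p = 0.00852) and Afmid (-2.60 ± 0.52, adjusted p = 0.0201), the aspartate aminotransferase Got1 (-1.55 ± 0.28, adjusted p = 0.0124), and Asl, Slc25a15, Uroc1, Gcdh and Hal. Cps1, the entry enzyme of the urea cycle, read 17.15, 16.89 and 16.70 on CSAA and 16.28, 15.03 and 15.36 on CDAA and was not called (-1.35 ± 0.36, adjusted p = 0.0636). Between 3 and 5 were called without CSAA 1, CSAA 2, CSAA 3 or CDAA 2. Calls that did not hold on removal of 1 array were those of Afmid without CSAA 1, CSAA 2, CSAA 3 or CDAA 2 (highest adjusted p = 0.0891), Got1 without CSAA 1 (highest adjusted p = 0.0616), Asl without CSAA 1, CSAA 3, CDAA 2 or CDAA 3 (highest adjusted p = 0.142), Slc25a15 without CSAA 1, CSAA 2, CSAA 3, CDAA 2 or CDAA 3 (highest adjusted p = 0.115), Uroc1 without CSAA 1, CSAA 2, CSAA 3 or CDAA 2 (highest adjusted p = 0.105) and Gcdh without CSAA 1, CSAA 2, CSAA 3, CDAA 2 or CDAA 3 (highest adjusted p = 0.153).

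In glucose metabolism, gluconeogenic G6pc (glucose-6-phosphatase) read 17.83, 17.36 and 16.56 on CSAA and 15.01, 12.86 and 11.61 on CDAA (-4.09 ± 0.80, adjusted p = 0.0188), and Fbp1 fell (-1.33 ± 0.30, adjusted p = 0.0339). The pyruvate kinase of non-hepatocyte and dividing cells, Pkm, read 5.66, 5.39 and 5.67 and 11.63, 12.74 and 12.26, at least 22.1-fold higher from background (adjusted p = 7.68e-05). Pfkp and the leukocyte hexokinase Hk3 also rose, Pfkp to at least 1.03-fold (adjusted p = 0.00988). Genes of glucose output thus read lower and isozymes of other cells higher on the same arrays. Among 23 genes these 5 were the calls (median -1.19, and 0.69 when centred on hepatocyte genes; 11 were lower without CDAA 1, 1 without CSAA 2, CSAA 3 or CDAA 2, and without CSAA 1 0 were lower and 1 higher). Macrophage markers rose on the same arrays, and their part in Pkm and Hk3 was not tested. Among the genes named in this group, the call ended for G6pc without CSAA 1, CSAA 2 or CDAA 2 (highest adjusted p = 0.0912), Fbp1 without CSAA 1, CSAA 2, CSAA 3 or CDAA 3 (highest adjusted p = 0.134), Pfkp without CSAA 1 (highest adjusted p = 0.0559) and Hk3 without CSAA 1, CSAA 2, CSAA 3, CDAA 2 or CDAA 3 (highest adjusted p = 0.124).

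Drug and steroid metabolism split. Of 26 listed genes 7 fell and 3 rose, at a median of -0.25 that turned to 0.044 with centring on the negative controls and to 1.62 with centring on hepatocyte genes. Aldehyde oxidase Aox3 read 16.48, 15.60 and 16.34 on CSAA and 13.18, 11.78 and 10.50 on CDAA (-4.31 ± 0.63, adjusted p = 0.00522). Cyp2c54 (-3.29 ± 0.39, adjusted p = 0.00207), the carboxylesterase Ces2a (-2.67 ± 0.28, adjusted p = 0.00136), Ugt2b1 (-2.23 ± 0.31, adjusted p = 0.00394) and Cyp2j5 (-1.96 ± 0.23, adjusted p = 0.00202) fell as well. The steroid and bile acid hydroxylase Cyp3a11 rose (1.66 ± 0.29, adjusted p = 0.0112). Over whole families read by the start of the symbol, a grouping chosen after the values were seen, 21 of 96 cytochrome P450 genes fell and 8 rose, 6 of 17 carboxylesterases and 3 of 11 UDP-glucuronosyltransferases fell with none higher, and 7 of 21 glutathione S-transferases rose with 1 lower. Over all probe sets 1.95% fell and 6.53% rose. The organic anion carrier Slc22a7 (-4.94 ± 0.44, adjusted p = 0.000624) and the selenium-binding protein Selenbp2 (-4.89 ± 0.41, adjusted p = 0.000514), on no list, were among the 12 lowest differences, and the adhesion receptor Adgrf1 dropped to background, at least 7.13-fold lower (adjusted p = 0.00023). Only 1 listed gene was called higher without CSAA 1 or CDAA 2. Removal of 1 array ended the call for Cyp3a11 without CSAA 1, CSAA 3 or CDAA 2 (highest adjusted p = 0.0595).

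Pericentral and clock genes gave no calls in the fit on all 6 arrays, while periportal genes leaned lower. The periportal median was -1.94, with 8 of 10 differences below 0, and the pericentral median was 0.040. Over all probe sets 1.95% were called lower. None of 12 pericentral genes was called by limma, and none by limma's fit without moderation. At an unadjusted p under 0.05 in limma's test 2 were higher, Lect2 (1.73) and Cyp7a1 (2.30), and 1 lower, Cyp27a1 (-1.94). Oat stood at 0.87 (unadjusted p = 0.159). Of 10 periportal genes 3 fell, Hal, Etnppl (-3.01 ± 0.61, adjusted p = 0.0214) and Cyp2f2 (-2.20 ± 0.48, adjusted p = 0.0308). The protease gene Ctsc, also on the periportal list and also used by leukocytes, rose (3.38 ± 0.59, adjusted p = 0.0116). None of 17 clock genes was called by limma (3 lower at an unadjusted p under 0.05, and none without moderation), at a median of -0.82 that was 1.06 when centred on hepatocyte genes; Cry1 and Hlf stood at -1.28 ± 0.48, adjusted p = 0.174 and -1.47 ± 0.44, adjusted p = 0.0962. Without CDAA 1, 6 periportal genes, 1 pericentral gene and 2 clock genes were lower; 1 periportal gene was lower and none higher without CSAA 3 or CDAA 2, and 1 clock gene was called lower without CSAA 2 and 1 in each direction without CSAA 3. Of 19 respiratory chain genes Ndufv1 fell (-1.28 ± 0.30, adjusted p = 0.0391), with a list median of -0.39, and 1.48 when centred on hepatocyte genes. With 1 array left out at a time, the call was lost for Etnppl without CSAA 3, CDAA 2 or CDAA 3 (highest adjusted p = 0.0753), Cyp2f2 without CSAA 1, CSAA 2, CSAA 3 or CDAA 2 (highest adjusted p = 0.131), Ctsc without CSAA 3 or CDAA 2 (highest adjusted p = 0.0535) and Ndufv1 without CSAA 1, CSAA 2, CSAA 3, CDAA 2 or CDAA 3 (highest adjusted p = 0.136).

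Against these decreases, genes of the NRF2 antioxidant list rose in part. NRF2 activity was not measured. The antioxidant element letters occurred in 1 of 19 available promoters of the list (5.26%, against 2.52% of all genes). Of 23 measured genes 12 were higher and none lower, at a median of 1.83, or 0.96 over the 22 members above background on a diet with members under it on CSAA taken at their bound. The glutathione transferase Gsta2 read 10.10, 8.72 and 8.64 on CSAA and 14.78, 16.60 and 15.64 on CDAA (6.52 ± 0.56, adjusted p = 0.000554), and Gstm3 read 12.88, 12.71 and 11.88 and 19.05, 18.54 and 17.53 (5.88 ± 0.45, adjusted p = 0.000376). Every CDAA array lay more than the whole CSAA range above the controls for both. The quinone reductase Nqo1 (adjusted p = 0.00414), the sulfiredoxin Srxn1 (adjusted p = 0.00728), the carbonyl reductase Cbr3 (adjusted p = 0.000543) and the aldo-keto reductase Akr1b8 (adjusted p = 0.000535) rose from background, to at least 2.41, 5.53, 1.04 and 6.35 times it. Ugdh, Gstm1, Gsta4 and Txn1 rose by 1.86, 1.83, 2.31 and 1.33, and Slc7a11 was called while not above background on either diet. Hmox1, the haem oxygenase, read 8.15, 6.83 and 7.16 and 13.95, 14.68 and 13.67 (6.72 ± 0.42, adjusted p = 0.000177) and is also a Kupffer cell gene, as its place on that list records. Gclc (-0.77 ± 0.70, adjusted p = 0.587) and Gclm (-0.011 ± 0.33, adjusted p = 0.99), which make glutathione and are textbook NRF2 targets, were not called, so the list did not move as a block. Leaving out single arrays ended the call of Gstm1 without CDAA 2 (highest adjusted p = 0.0658), Txn1 without CSAA 1, CSAA 2, CSAA 3, CDAA 2 or CDAA 3 (highest adjusted p = 0.174) and Slc7a11 without CSAA 2, CSAA 3 or CDAA 2 (highest adjusted p = 0.0749).

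Metal-handling genes rose beside them, with 6 of 19 higher and none lower (5 were lower without CDAA 1). The metallothioneins Mt1 and Mt2 bind zinc and copper. Mt2 read 10.63, 6.41 and 9.65 on CSAA and 17.24, 15.29 and 15.01 on CDAA (6.95 ± 1.08, adjusted p = 0.00657), and Mt1 13.004, 9.02 and 13.71 and 17.48, 17.64 and 17.23 (5.54 ± 1.09, adjusted p = 0.019). Id1, a target of BMP signalling, rose (3.01 ± 0.46, adjusted p = 0.00595), and so did the iron exporter Slc40a1 (2.61 ± 0.48, adjusted p = 0.0149) and ferritin light chain Ftl1 (1.28 ± 0.28, adjusted p = 0.0314). Lcn2, given above, is on this list too. Hamp, the iron hormone hepcidin, did not (0.31 ± 0.32, adjusted p = 0.645). Calls that did not hold on removal of 1 array were those of Mt1 without CDAA 2 (highest adjusted p = 0.086), Slc40a1 without CSAA 1 or CSAA 2 (highest adjusted p = 0.0762) and Ftl1 without CSAA 1, CSAA 2, CSAA 3, CDAA 2 or CDAA 3 (highest adjusted p = 0.131).

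Stress pathways beyond NRF2 gave few calls. Of 19 integrated stress response genes 3 rose, Ddit3 (CHOP, 1.39 ± 0.25, adjusted p = 0.0136), the amino acid carrier subunit Slc3a2 (2.19 ± 0.37, adjusted p = 0.01) and Nupr1 (at least 2.03-fold, adjusted p = 0.00498); Trib3 was not called (0.71 ± 0.39, adjusted p = 0.35). Of 20 endoplasmic reticulum chaperone genes Sdf2l1 fell (-1.43 ± 0.30, adjusted p = 0.025) and none rose, and Hspa5 stood at -0.36 ± 0.37, adjusted p = 0.641. The list's median was -0.95, and 0.93 when centred on hepatocyte genes; 8 were lower without CDAA 1, 2 without CSAA 3 and 0 without CSAA 1, CSAA 2 or CDAA 2. Of 17 p53 targets Cdkn1a, the p21 cell cycle inhibitor, was the 1 call, reading 8.02, 5.86 and 4.12 on CSAA and 13.14, 11.06 and 10.70 on CDAA (5.64 ± 1.01, adjusted p = 0.0129). Without CDAA 1, 2 p53 targets were higher and 1 lower, and 3 were higher without CDAA 3. Among the genes named in this group, the call ended for Ddit3 without CSAA 1, CSAA 3 or CDAA 2 (highest adjusted p = 0.0695), Sdf2l1 without CSAA 1, CSAA 2, CSAA 3 or CDAA 2 (highest adjusted p = 0.108) and Cdkn1a without CSAA 2 (highest adjusted p = 0.0652).

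Cell cycle genes were higher, at low signal. All 20 differences were above 0, 11 of them called, at a median of 1.87, but 11 of 20 were not above background on either diet. Over the other 9 the median with bounds was 0.00. Of these 9, 7 were under background on CSAA and stood at their bound, or at 0 where no bound could be given. The 0.00 is such a fill and not a measured difference. Pcna, the sliding clamp of DNA replication, was above background on both diets at 11.73, 11.78 and 12.16 on CSAA and 13.22, 14.89 and 15.20 on CDAA (2.55 ± 0.51, adjusted p = 0.0201). Ccnb2 rose from background to at least 1.76-fold (adjusted p = 0.000541). Cdk1 read 2.25, 2.63 and 2.56 and 5.33, 6.16 and 6.67, with no fold given because it was not above background on either diet (adjusted p = 0.00114), and Mki67 was not called (adjusted p = 0.108). Between 5 and 7 were called without CSAA 1, CSAA 2, CSAA 3 or CDAA 2. Which cells divided cannot be read from these arrays, and the macrophage markers moved with them. Removal of 1 array ended the call for Pcna without CSAA 1, CSAA 2, CSAA 3, CDAA 2 or CDAA 3 (highest adjusted p = 0.0955).

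Genes tied to loss of the mature hepatocyte state or to cytoskeletal change rose in 11 of 22 cases with none lower (median 2.04; 1 fell without CDAA 1). Ly6d read 4.16, 3.23 and 3.84 on CSAA, not above background, and 11.12, 11.27 and 10.88 on CDAA, at least 10.2-fold higher (adjusted p = 3.82e-05). The epithelial keratin Krt8 read 11.27, 11.01 and 10.97 and 13.39, 12.48 and 12.90 (1.84 ± 0.30, adjusted p = 0.0079). Anxa5 rose by 3.75 ± 0.35, adjusted p = 0.000765. These 3 separated the diets. Anxa2, S100a11, Vim (vimentin), Tmsb10, Anxa3 and Tuba1a rose from background, by at least 13.9, 36, 19.4, 18.8, 1.76 and 5.25 fold, Tubb6 rose without reaching a bound, and Cd24a was called with neither diet above background. Vim, Tmsb10, S100a11 and Anxa2 are abundant in macrophages, stellate cells and endothelium, whose markers rose on the same arrays; their part was not tested. The fetal and progenitor genes proper, Afp and Epcam, were not above background on either diet, and Sox9 was at -1.34 ± 1.05, adjusted p = 0.523. With 1 array left out at a time, the call was lost for Tuba1a without CSAA 1, CSAA 2, CSAA 3, CDAA 2 or CDAA 3 (highest adjusted p = 0.0985).

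**Figure D3:**
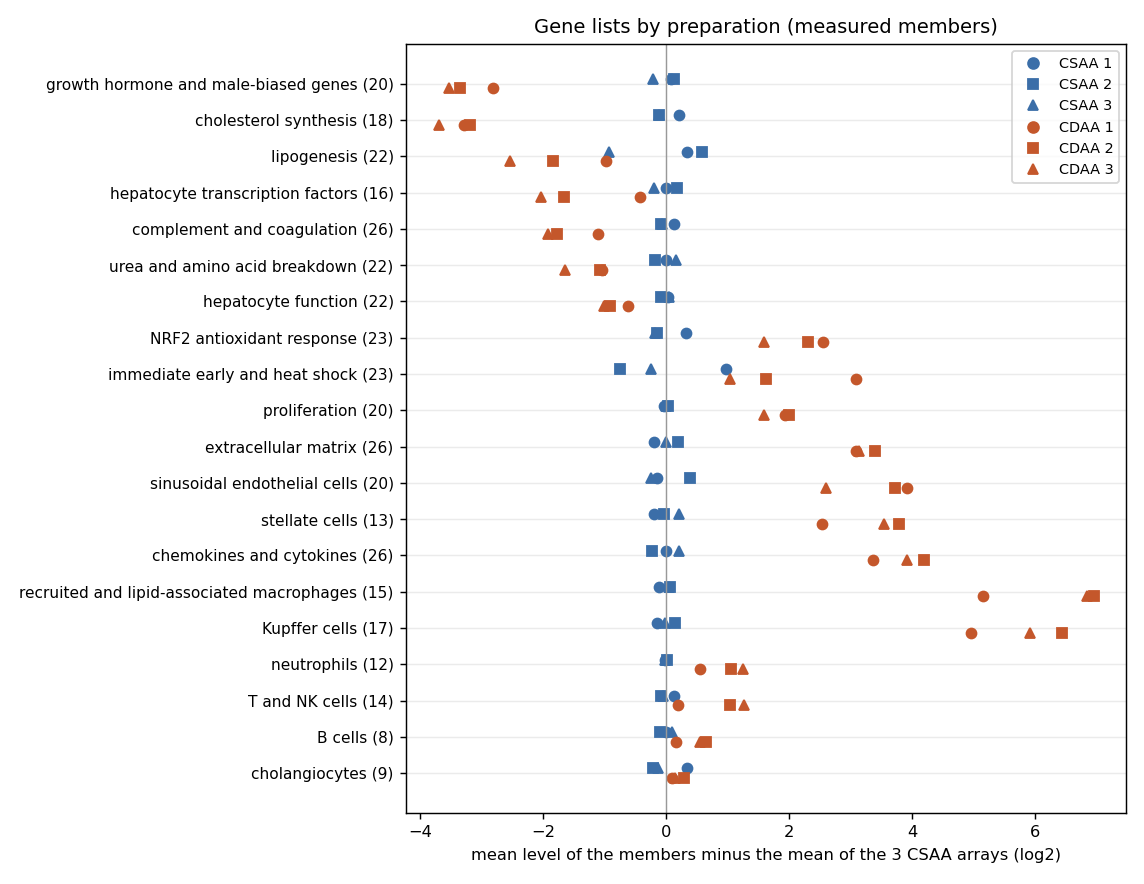
For each of 20 gene lists, the mean log2 level of its members on each of the 6 arrays minus the mean over the CSAA arrays, in blue for CSAA and orange for CDAA, with preparations 1, 2 and 3 as circle, square and triangle. The lists of Kupffer cells and recruited macrophages lie furthest to the right and cholesterol synthesis and male-biased genes furthest to the left; CDAA 1 is the CDAA array nearest to 0 in most of the lists shown. Centring on hepatocyte genes moves every CDAA point to the right and turns the sign of several hepatocyte lists.

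Macrophage genes held the largest increase. All 15 measured genes of recruited and lipid-associated macrophages rose, against 6.53% of all probe sets, at a median of 5.35, or 3.50 over 13 members with bounds. Their summed level (log2 of the summed linear signals) was 9.92, 9.43 and 9.35 on the CSAA arrays and 17.46, 19.55 and 19.64 on the CDAA arrays. The macrophage elastase Mmp12 read 3.95, 4.33 and 3.49 on CSAA and 16.96, 18.92 and 19.07 on CDAA, at least 1530-fold higher (adjusted p = 2.78e-05), the largest difference among all genes named by the rule. Gpnmb, a glycoprotein of lipid-laden macrophages, read 3.60, 4.05 and 3.38 and 13.34, 14.25 and 14.11 (at least 71.5-fold, adjusted p = 2.22e-05). Trem2, the lipid receptor that defines this state, read 3.54, 3.13 and 3.77 and 9.08, 11.97 and 12.67 (at least 11.3-fold, adjusted p = 0.00143). In each of the 3, the CSAA arrays lay in the background and CDAA 1 was the lowest of the CDAA arrays. Lysozyme Lyz2 (at least 549-fold, adjusted p = 0.000257), galectin 3, Lgals3 (at least 23.4-fold, adjusted p = 0.000744), and the monocyte marker Ly6c2 (at least 1.85-fold, adjusted p = 0.000601) moved the same way.

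Resident Kupffer cell genes rose with them, 16 of 17, at a median of 6.72 (4.82 with bounds over 16 members). Their summed level was 17.15, 16.63 and 16.31 on the CSAA arrays and 17.52, 18.97 and 18.62 on the CDAA arrays. Most of the CSAA sum was that of C6, a complement factor that hepatocytes also make. Without it the sum was 12.28, 12.56 and 13.04 on CSAA and 17.26, 18.91 and 18.59 on CDAA. Without Slc40a1, the iron exporter, as well, it was 10.04, 10.14 and 10.02 on CSAA and 17.01, 18.70 and 18.52 on CDAA; both were left out after their values were seen. Clec4f, a lectin largely confined to Kupffer cells, read 5.41, 5.51 and 5.75 on CSAA and 11.84, 14.54 and 15.38 on CDAA, at least 72.5-fold higher (adjusted p = 0.000857). Cd5l, a secreted scavenger protein of tissue macrophages, read 6.14, 7.48 and 6.82 and 15.94, 17.66 and 17.52 (at least 629-fold, adjusted p = 8.87e-05), and the complement component C1qb, made by macrophages, read 4.10, 6.39 and 5.41 and 13.27, 15.41 and 15.02 (at least 113-fold, adjusted p = 0.000376). All were in the background on CSAA. Vsig4, Timd4 and Marco, other resident markers, rose by at least 70.9, 1.15 and 4.7 fold. The one lower member was C6, which the complement list above holds too; it was not called without CSAA 1, CSAA 2, CSAA 3 or CDAA 2.

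Genes of antigen presentation and inflammatory signalling followed. Of 9 MHC class II genes 6 rose, H2-Ab1 from 5.48, 6.21 and 6.81 to 12.80, 15.80 and 15.11, at least 114-fold (adjusted p = 0.000622), and H2-DMb1 to at least 49.3-fold (adjusted p = 0.000513). Of 26 chemokines and cytokines 20 rose and none fell (median 3.02, 2.04 with bounds over 22 members; 13 rose without CSAA 1 or CSAA 2). They included the monocyte attractant Ccl2 (at least 4.65-fold, adjusted p = 0.000916), Ccl3 (at least 26-fold, adjusted p = 2.22e-05), the neutrophil attractant Cxcl2 (at least 6.31-fold, adjusted p = 2.78e-05), the macrophage growth factor Csf1 (at least 8.95-fold, adjusted p = 0.000288), Tnf (at least 2.03-fold, adjusted p = 0.000363) and Il1b (at least 9.51-fold, adjusted p = 0.00229). Il6 was not above background on either diet. Of 23 interferon-induced genes 8 rose, among them Irf1 (2.55 ± 0.29, adjusted p = 0.00174), Irf7 (3.86 ± 0.59, adjusted p = 0.0064) and Gbp2 (at least 3.12-fold, adjusted p = 0.00377), whereas Mx2, Irgm1 and Iigp1 were not called. Of 19 lysosomal genes 9 rose, with cathepsin S, Ctss, at least 152-fold higher (adjusted p = 8.25e-05), legumain, Lgmn, at 6.47 ± 0.31, adjusted p = 7.18e-05 and the hexosaminidase subunit Hexa at 3.84 ± 0.30, adjusted p = 0.000434. Hepatocytes can make several of these, and the part of the macrophage markers in them was not tested.

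Among the 12 largest increases were also genes on none of the lists. They included genes known from leukocytes: Spi1, which encodes the myeloid factor PU.1 (at least 453-fold, adjusted p = 7.78e-05), the signalling chain Fcer1g (at least 59.1-fold, adjusted p = 0.000376), the inhibitory receptor Lilrb4a (at least 145-fold, adjusted p = 0.000153) and the regulator Rgs1 (at least 91.9-fold, adjusted p = 0.000843). Fabp7, a fatty acid binding protein, rose to at least 102-fold (adjusted p = 0.000136). By family, grouped after the values were seen, 15 of 32 C-type lectins, 6 of 12 Toll-like receptors, 9 of 25 integrins, 5 of 14 Fc receptors and 5 of 12 annexins rose with none lower, while none of 73 ribosomal protein genes was called in either direction by limma (19 higher and 2 lower at an unadjusted p under 0.05). In the promoters of the higher genes, searched for the same 5 motifs, the PU.1 letters occurred in 69 of 1057 with a promoter in the table (6.53%), against 2.63% of all 15691 and 6 of 322 lower genes (1.86%). The other 4 stood at 1.42% (sterol response element), 2.37% (antioxidant element), 8.04% (STAT) and 38.7% (CCAAT) of the higher genes, against 1.22%, 2.52%, 7.76% and 39.2% of all. Among the lower genes these 4 stood at 2.17%, 4.66%, 9.01% and 46.6%. Shown as an example is a promoter of Mmp12, the largest increase, at chr9:7344147-7344396 on the plus strand (RefSeq, GRCm38.p6), with the match in capitals. Of its 2 available promoters, the one ranked first by its number of PU.1 matches was taken.
Mmp12: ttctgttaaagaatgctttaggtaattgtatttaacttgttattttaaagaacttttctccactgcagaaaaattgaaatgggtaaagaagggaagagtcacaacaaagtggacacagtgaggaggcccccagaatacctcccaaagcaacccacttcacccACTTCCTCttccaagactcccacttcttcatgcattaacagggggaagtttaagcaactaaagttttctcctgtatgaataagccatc
The match begins 88 bases before the start and, like those above, is a match of letters only.

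Sinusoidal endothelial genes rose as well, in 16 of 20 cases, at a median of 3.52 (2.77 with bounds over 16 members). Their summed level was 11.44, 12.13 and 11.84 on the CSAA arrays and 16.23, 17.04 and 16.32 on the CDAA arrays. Endoglin, Eng, read 6.52, 8.06 and 6.69 on CSAA and 13.89, 13.19 and 12.55 on CDAA (6.12 ± 0.50, adjusted p = 0.000476). The hyaluronan receptor Lyve1 read 5.33, 5.84 and 4.68 and 11.79, 12.16 and 10.48, at least 13.3-fold higher (adjusted p = 0.000448), and the Fc receptor Fcgr2b 9.43, 9.81 and 10.35 and 14.26, 15.71 and 14.78 (5.06 ± 0.42, adjusted p = 0.000523). The groups lay apart in each. Clec4g (5.26 ± 0.71, adjusted p = 0.00367), Oit3 (3.95 ± 0.47, adjusted p = 0.00206) and Dnase1l3 (3.65 ± 0.40, adjusted p = 0.00161) were above background on both diets and rose. Stab2 rose from background (adjusted p = 0.0497), while Stab1, Flt1 and Flt4 were not above background on either diet. Leaving out single arrays ended the call of Stab2 without CSAA 1, CSAA 2, CSAA 3 or CDAA 2 (highest adjusted p = 0.188).

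Stellate cell genes rose in 10 of 13 cases, at a median of 3.60 (1.28 with bounds over 9 members), with a summed level of 8.66, 8.98 and 9.18 on the CSAA arrays and 11.85, 13.77 and 13.91 on the CDAA arrays. Lecithin retinol acyltransferase, Lrat, which stores vitamin A, read 6.26, 6.30 and 6.66 on CSAA and 9.56, 11.23 and 11.91 on CDAA (at least 8.92-fold, adjusted p = 0.00249). Acta2, the actin of activated myofibroblasts, read 4.11, 2.87 and 4.01 and 7.95, 9.47 and 7.83 (at least 1.6-fold, adjusted p = 0.00161), and Cygb was at least 2.42-fold higher (adjusted p = 0.00226). Hepatocyte growth factor, Hgf, rose to at least 12.4-fold (adjusted p = 0.00494). Of 26 matrix genes 18 rose (median 2.49, 1.25 with bounds over 16 members), among them Col3a1 (at least 15.9-fold, adjusted p = 2.73e-05), Sparc (at least 348-fold, adjusted p = 0.000136), Bgn (6.09 ± 0.52, adjusted p = 0.000568), Dcn (7.18 ± 0.80, adjusted p = 0.00167) and Timp1 (adjusted p = 0.000843). Col1a1 rose from 4.64, 4.08 and 4.00 to 7.54, 6.72 and 6.81 (adjusted p = 0.00191), around the background line of the CDAA arrays, so no fold is given for it or for Timp1. Fibronectin, Fn1, which hepatocytes secrete, leaned the other way at -1.83 ± 0.95, adjusted p = 0.327 and was not called.

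Other cell types left less trace. Of 12 neutrophil markers 10 were not above background on either diet and 4 were called, with S100a8 at 2.33, 2.504 and 3.26 on CSAA and 4.22, 7.05 and 8.23 on CDAA (adjusted p = 0.0441). The list's median was 0.12, and -0.045 with arrays centred on their medians. The neutrophil calls numbered 0 without CSAA 1, CSAA 3 or CDAA 2, 1 without CSAA 2 and 2 without CDAA 3. All but 1 of 14 T and NK cell markers and all 8 B cell markers were not above background on either diet, Cd3e, Cd8a, Ms4a1 and Pax5 among them. The 3 T and NK calls (Ncr1, Il7r and Klrb1c) and the 1 B cell call (Cd22) lay under background. They numbered 0 to 1 and 0 without CSAA 1, CSAA 2, CSAA 3 or CDAA 2, 6 and 2 without CDAA 1, and 1 T and NK gene without CDAA 3. Of 9 cholangiocyte markers 7, Krt19 and Krt7 included, were not above background on either diet, at a median of -0.026 that was 0.27 with centring on the negative controls and 1.85 with centring on hepatocyte genes. Anxa4 was the only call (1.598 ± 0.30, adjusted p = 0.0165), and 1 member was lower without CDAA 1. The erythroid enzyme Alas2 read 11.23, 11.31 and 11.81 on CSAA and 8.47, 8.82 and 8.86 on CDAA (-2.73 ± 0.27, adjusted p = 0.000925), and platelet factor 4, Pf4, rose (adjusted p = 0.0186). Calls that did not hold on removal of 1 array were those of S100a8 without CSAA 1, CSAA 2, CSAA 3, CDAA 2 or CDAA 3 (highest adjusted p = 0.173), Ncr1 without CSAA 1, CSAA 2, CSAA 3 or CDAA 2 (highest adjusted p = 0.0721), Il7r without CSAA 1, CDAA 2 or CDAA 3 (highest adjusted p = 0.117), Klrb1c without CSAA 1, CSAA 2, CSAA 3, CDAA 2 or CDAA 3 (highest adjusted p = 0.129), Cd22 without CSAA 1, CSAA 2, CSAA 3 or CDAA 2 (highest adjusted p = 0.171), Anxa4 without CSAA 2, CSAA 3 or CDAA 2 (highest adjusted p = 0.0758) and Pf4 without CSAA 1, CSAA 2, CSAA 3 or CDAA 2 (highest adjusted p = 0.0887).

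Genes induced by dissociating tissue were examined because hepatocytes were released enzymatically on both diets. Of 23 immediate early and heat shock genes 6 rose and none fell (median 1.53). The inducible chaperone Hspa1a read 7.99, 6.54 and 7.07 on CSAA and 13.08, 11.74 and 10.98 on CDAA (4.73 ± 0.58, adjusted p = 0.00242), and its near-identical copy Hspa1b 8.76, 6.82 and 5.70 and 12.33, 11.37 and 10.60 (4.34 ± 0.77, adjusted p = 0.0124). Klf6 (at least 10.5-fold, adjusted p = 0.00226), Ier3 (at least 3.52-fold, adjusted p = 0.00246), Egr2 (at least 2.69-fold, adjusted p = 0.0049) and Dnajb1 (1.53 ± 0.35, adjusted p = 0.0364) were the others. Fos read 13.07, 6.21 and 9.70 and 15.11, 12.24 and 11.15 (3.18 ± 1.69, adjusted p = 0.338), Jun 13.68, 10.43 and 12.67 and 14.26, 12.01 and 12.23 (0.58 ± 0.90, adjusted p = 0.767), and neither was called. The part of the isolation in the heat shock calls was not tested on these arrays. In total liver Hspa1a and Fos were not above background on either diet, so no diet difference can be read for them there. Jun was above background there on both diets, with a difference of 0.39. Among the genes named in this group, the call ended for Hspa1b without CSAA 2 or CDAA 2 (highest adjusted p = 0.0658) and Dnajb1 without CSAA 1, CSAA 2, CSAA 3, CDAA 2 or CDAA 3 (highest adjusted p = 0.13).

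The diet difference was then set against that of total liver in a fit over all 14 arrays, where 1494 probe sets were higher in total liver (6.73%) and 785 lower (3.54%). Of the probe sets higher in hepatocyte preparations, 948 were also higher in total liver (65.4% of the 1450 and 63.5% of the 1494); of those lower, 278 were shared (64.2% of the 433 and 35.4% of the 785), and 1 probe set was called in opposite directions. The test of the difference itself (total liver minus hepatocytes) called 570 probe sets (2.57%), 47 higher (0.212%) and 523 lower (2.36%). Of the 1450 probe sets that rose in hepatocyte preparations, 513 had a lower diet difference in total liver by that test. Background differed between the tissues, with the 95th percentile of the negative controls at 9.96 to 10.23 in total liver. Of the 523 lower differences, 288 were not above background in total liver on either diet, 117 on CSAA alone, and 449 were not above background on the CSAA hepatocyte arrays; the part of background in them was not tested. Without CDAA 1 the difference called 2265 probe sets, 1025 of them higher. Its higher calls numbered 16 without CSAA 1 or CDAA 2, 20 without CSAA 2, and 20 to 29 without total liver CSAA 1, CSAA 2, CSAA 3, CSAA 4, CDAA 2, CDAA 3 or CDAA 4.

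Lists of other liver cells held many of the genes whose diet difference was lower in total liver. Of 20 sinusoidal endothelial genes 14 differed in this way, as did 13 of 17 Kupffer cell genes, 11 of 26 chemokines and cytokines, 7 of 26 matrix genes, 6 of 9 MHC class II genes, 6 of 13 stellate cell genes and 5 of 15 recruited macrophage genes. The median endothelial difference was 3.52 in hepatocyte preparations and 0.11 in total liver, where 10 of the 20 were above background on both diets and 7 on neither. The median Kupffer difference was 6.72 against 1.80, and that of recruited macrophages 5.35 against 3.59. In total liver 9 of the 17 Kupffer genes were above background on both diets, 3 on neither and 5 not on CSAA, and of the 15 recruited macrophage genes 2, 8 and 5, so these medians include differences that background limits. Clec4f differed between tissues by -7.30 ± 0.81, adjusted p = 8.08e-05 and Eng by -5.62 ± 0.49, adjusted p = 1.05e-05. Both of these genes were above background in total liver on both diets.

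Lists of hepatocyte genes gave few calls in this test. None of the 18 cholesterol synthesis genes, 20 male-biased genes, 22 hepatocyte function genes or 25 choline genes differed between tissues in limma's test (2, 3, 6 and 6 did at an unadjusted p under 0.05), although a missed threshold does not show that they responded alike. The median cholesterol synthesis difference was -3.36 in hepatocyte preparations and -3.06 in total liver, that of male-biased genes -2.95 and -2.24, that of hepatocyte function genes -0.68 and -0.27, and that of choline genes -0.91 and -0.32. In total liver 11 of the 18 cholesterol synthesis genes were above background on both diets, 3 on neither and the others not on CDAA. For the 20 male-biased genes these were 15, 1 and the others. The total liver medians of both lists thus include differences that background limits. Complement and coagulation genes stood at -1.49 and -0.64, with 1 of 26 called as differing and 15 at an unadjusted p under 0.05. The difference was called for 4 of 23 NRF2 genes (1 higher and 3 lower in total liver) and for 4 of 22 genes of dedifferentiation, all lower. Gsta2 differed by 6.52 in hepatocyte preparations and 6.78 in total liver, and Mt2 by 6.95 and 6.93. Hsd3b5 on CDAA and Cdkn1a on CSAA were not above background in total liver, so their differences there (-9.97 and 4.89, against -10.36 and 5.64 in hepatocyte preparations) are limited by it. Among the 47 that were higher in total liver's difference were Mlxipl, at -3.25 in hepatocyte preparations and -1.17 in total liver (2.08 ± 0.44, adjusted p = 0.0148 for the difference), Aox3 at -4.31 and -1.92 (2.40 ± 0.60, adjusted p = 0.0479), and F12 at -2.05 and -0.064 (1.98 ± 0.49, adjusted p = 0.0431).

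**Figure D4:**
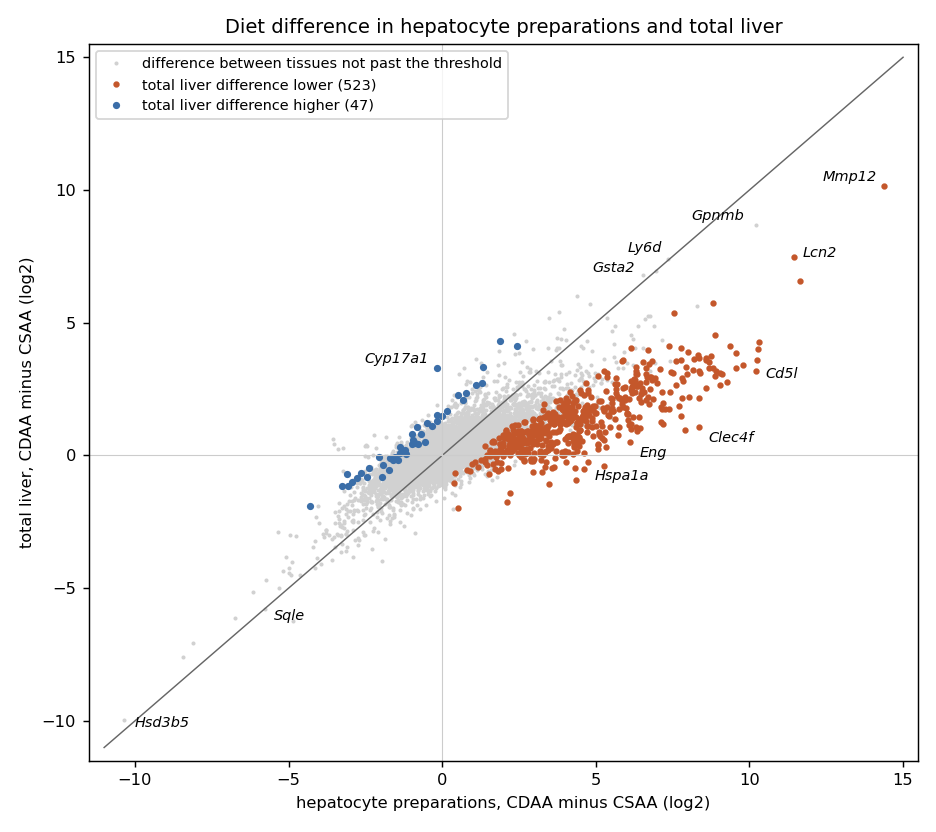
Each point is 1 of 22206 probe sets, with the CDAA minus CSAA difference (log2) in hepatocyte preparations on the x axis and in total liver on the y axis, the line of equality, and the probe sets called in the test of the difference coloured orange (523 lower in total liver) or blue (47 higher). Genes of Kupffer cells and endothelium lie below the line at large hepatocyte differences, while Gsta2 lies close to it; Hsd3b5 and Sqle, also near the line, were not above background in total liver on CDAA.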

How the data were processed

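Biotin-labelled total RNA (WT PLUS kit, per the labels' protocols) was hybridised to Clariom S mouse arrays, and the deposited values are log2 signals that the authors made with RMA, per the submitters' processing notes; its version and settings were not given in the sources used here. RMA sets arrays on a common scale, so a shift shared by most genes would not show. Values were taken as deposited for all 14 arrays. Gene symbols came from the platform annotation (19572 of 22206 tested probe sets have 1 symbol, 2634 none); where a gene had several, the brightest was used. Some genes are not analysed here.

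Groups were taken from the labels. Differences were tested with limma 3.58.1 in R 4.3.3 (lmFit and eBayes, two-sided, Benjamini-Hochberg over 22206 probe sets), on the 6 hepatocyte arrays for the diet and on all 14 for the difference between tissues; the fits were tested on simulated data. The p-values measure the spread between 3 preparations per diet, and the number of arrays limits precision. The gene members and the 44 lists were chosen with earlier results of these data known. Genes were named by rule: the 12 highest and 12 lowest called differences, each list's 4 lowest p-values, the 6 widest tissue differences in each direction and a fixed set of diet-response genes. List members named beyond that rule were chosen after their values were seen. For Nudt7, on the male-biased list, 2 probe sets disagreed. Alternatives covered moderation, filters, normalization, centring, array weights, a replicate block, the samples fitted and leaving out each array.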

Additional observations from a re-analysis of the deposited data

Results flagged for a closer look

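The diet difference of the hepatocyte preparations was unlike that of total liver for 570 of 22206 probe sets (limma's test of the difference over 14 arrays, adjusted p under 0.05). The genes with the widest gaps below 0 (total liver minus hepatocytes, log2) were Clec4f (-7.30 ± 0.81, adjusted p = 8.08e-05), Cd5l (-7.03 ± 0.54, adjusted p = 6.95e-06), Wfdc17 (-6.94 ± 0.92, adjusted p = 0.000394), Lyz2 (-6.67 ± 0.71, adjusted p = 6.11e-05), C1qb (-6.51 ± 0.76, adjusted p = 0.00011) and Rgs1 (-6.39 ± 1.07, adjusted p = 0.00264). These 6 are macrophage and leukocyte genes, all under background on the CSAA hepatocyte arrays. In total liver their differences were 1.06, 3.20, 0.96, 3.59, 2.75 and 3.39; there Rgs1 was under background on CSAA and the other 5 were above it on both diets.

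In the other direction stood Cyp17a1 (3.47 ± 0.85, adjusted p = 0.0403), Abcc4 (2.43 ± 0.53, adjusted p = 0.0183), Aox3 (2.40 ± 0.60, adjusted p = 0.0479), Mlxipl (2.08 ± 0.44, adjusted p = 0.0148), F12 (1.98 ± 0.49, adjusted p = 0.0431) and Slc3a1 (1.98 ± 0.49, adjusted p = 0.0435). Cyp17a1, a steroid hydroxylase, had a difference of -0.18 in hepatocyte preparations and 3.29 in total liver, and the basolateral exporter Abcc4 had 1.90 and 4.32; both were under background in total liver on CSAA. Aox3, Mlxipl, F12 and the amino acid carrier subunit Slc3a1 fell in hepatocyte preparations, by 4.31, 3.25, 2.05 and 2.63 on the log2 scale, and their differences in total liver were -1.92, -1.17, -0.064 and -0.65.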

How the results depend on the processing

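Scaling, moderation, array weights and the choice of arrays all moved the counts. The main fit made 1883 calls (1450 higher, 433 lower). A separate fit on the 6099 probe sets above the negative controls on all arrays of a diet made 1198 (837 higher). Of the main calls, 1132 lay among those probe sets, and 1100 of them were kept. Array weights gave 4025 (2464 and 1561), the spread of all 14 arrays 4158 (2439 and 1719), and limma's fit without moderation 352 (273 and 79), with 325 of the calls kept. Lower calls numbered 761 after quantile normalization, 702 with centring on array medians and 192 with centring on the negative controls. Centring on 19 hepatocyte genes gave 20233 (20158 and 75), with 228 of the calls turned in sign. Leaving out 1 array at a time gave 1090 to 3221 calls, 910 to 1953 of them higher and 174 to 1268 lower. For total liver minus hepatocytes, where 570 were called (47 higher, 523 lower), array weights gave 2725 (1035 and 1690), quantile normalization 73 higher and a spread per tissue 16 higher, and leaving out 1 array gave 396 to 2265 in all, 16 to 1025 higher and 380 to 1240 lower. The cause of these changes was not tested, beyond the fewer probe sets or arrays that an alternative holds. Of 175 called genes given with values, 53 kept direction and call under all 19 alternatives that tested them.

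The following log2 differences changed sign. Centring on hepatocyte genes, which raises every difference by construction, moved Cyp17a1 to 1.70, Alb to 1.87, Scd1 to 1.80, Hspa5 to 1.52, Plin2 to 1.46, Pemt to 1.37, Cpt1a to 1.10, Bhmt to 1.03, Gnmt to 0.49, Hnf4a to 0.15, F2 to 0.72, Cry1 to 0.60, Ndufv1 to 0.59, Sox9 to 0.53, Cps1 to 0.52, Sdf2l1 to 0.44, Hlf to 0.41, Ahcy to 0.41, Kmo to 0.35, Got1 to 0.33, Pcyt2 to 0.030, Abca1 to 0.66, Fabp1 to 0.33, Fbp1 to 0.55, Fn1 to 0.052, Gclc to 1.11, Gclm to 1.87, Ghr to 0.25, Igf1 to 1.10, Klb to 0.28, Slc27a2 to 0.043 and Stat5b to 0.90. Centring on the negative controls moved Cyp17a1 to 0.12, Alb to 0.29, Scd1 to 0.22 and Gclm to 0.29. Array weights moved Jun to -0.029 and Alb to 0.015, and quantile normalization Alb to 0.013 and Scd1 to 0.044. Over the removal of each array in turn, values with both signs ran as follows: Cyp17a1 -0.62 to 0.22, Jun -0.34 to 1.29, Cyp4a14 -0.95 to 1.99, Alb -0.055 to 0.068, Scd1 -0.90 to 0.37, Gclm -0.34 to 0.16 and Hamp -0.015 to 0.52.

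The preparation numbers were not found to pair the arrays: residuals of same-numbered arrays correlated at 0.35, -0.21 and 0.26, and not every array correlated best with its own number. With the replicate number as a block, 2074 probe sets were called (1552 higher, 522 lower), 1712 of them among the 1883, and the tissue difference gave 615 (53 and 562). The limits are 3 arrays per diet, a ceiling near the top of the scale that can hide changes of the brightest hepatocyte genes, and background: 13909 of 22206 probe sets were not above it on either diet, so folds from background are lower bounds. Centring on hepatocyte genes or negative controls, and the list counts without each array, were chosen after seeing the data.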

Other observations

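Solute carriers and serpins, grouped by symbol after the values were seen, moved in both directions. Of 360 solute carrier genes 29 rose (8.06%, against 6.53% of all probe sets) and 21 fell (5.83%, against 1.95%). The share that rose lay near that of all probe sets. Their median log2 difference was -0.20 against -0.13 over all probe sets. The hepatocyte organic anion carriers Slc22a28, at 14.25, 14.37 and 14.57 on CSAA and 10.11, 10.44 and 10.40 on CDAA (-4.08 ± 0.24, adjusted p = 0.000133), and Slc22a30, at 15.94, 16.06 and 16.23 against 12.30, 12.73 and 12.98 (-3.40 ± 0.27, adjusted p = 0.000427), fell on every CDAA array. Slc16a7, a monocarboxylate carrier, rose from 10.57, 10.81 and 10.15 to 13.31, 13.25 and 12.57 (2.54 ± 0.31, adjusted p = 0.00234). The carriers Slc15a3 (adjusted p = 2.73e-05) and Slc11a1 (adjusted p = 8.87e-05), which phagocytes use in their endosomes, rose from background with the macrophage markers.

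Of 55 serpin genes 6 rose (10.9%, against 6.53% of all probe sets) and 5 fell (9.09%, against 1.95%). Serpina7, which encodes thyroxine-binding globulin, read 9.48, 10.80 and 8.27 on CSAA and 14.08, 13.58 and 13.42 on CDAA (4.18 ± 0.59, adjusted p = 0.00443), while Serpina11 read 11.13, 10.92 and 11.58 against 8.79, 8.75 and 8.37 (-2.57 ± 0.28, adjusted p = 0.00142). Secreted products of hepatocytes thus moved both ways within 1 family. The 73 ribosomal protein genes, none of which limma called, had a median of 0.86 (19 higher and 2 lower at an unadjusted p under 0.05).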
